A study of Mus musculus with 8 samples.

Results

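Mitochondria import most of their proteins from the cytosol, and they fuse and divide. The mRNAs for the machinery of both processes were examined in mouse MII oocytes, the ovulated eggs arrested in the second meiotic metaphase. Members were taken by gene symbol, namely the Timm, Tomm, Chchd, Phb, Mief and Letm1 symbols, both Pmpc subunits, the metaxins (Mtx), Samm50, Immt, Mfn1, Mfn2, Opa1, Opa3, Dnm1l, Fis1, Mff, Oma1 and Yme1l1. Of the 8537 genes found in both the HA and the input table, 28 met this rule, 12 of them for import, 7 for fusion and fission and 9 for the inner membrane, its cristae or other CHCH-domain proteins. A further 6 symbols were in 1 table only, Timm8a1 in HA and Chchd10, Mtx1, Mtx3, Pmpca and Tomm7 in input. The study asked how maternal age alters ribosome loading on maternal mRNAs. Both ages were RiboTagF/F;Zp3-Cre females of the C57BL/6 strain, in which Cre under the oocyte promoter Zp3 switches on an HA-tagged form of the ribosomal protein RPL22, so that old and young oocytes alike carried the tag. Young females were 1 month old and old females were retired breeders of 12 to 15 months, so that age and breeding history cannot be told apart, and each was given 5 IU PMSG to grow follicles, then 10 IU hCG after 48 h to induce ovulation, with oocytes taken after a further 13 h. There were 2 pools of 200 oocytes per age, and each pool gave an HA library (mRNA bound to tagged ribosomes) and an input library (total mRNA from 10% of the lysate).

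As background, most mitochondrial precursors enter through the TOM complex of the outer membrane and are passed to the SAM complex for outer membrane barrels, to the small TIM chaperones of the intermembrane space, or to TIM23 and its motor for the matrix, where the processing peptidase removes the presequence. Mitofusins and OPA1 fuse the outer and inner membranes, while DRP1 (the product of Dnm1l) is drawn to its receptors and divides the organelle. In oocytes mitochondria are inherited by the embryo, and stored mRNAs are translated without new transcription, in part through cytoplasmic polyadenylation elements (CPE) near the 3′ end.

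In HA libraries of old oocytes, the fission mRNA Dnm1l was higher than in young oocytes, and the peptidase mRNA Pmpcb, the import receptor mRNA Tomm22 and the CHCH-domain mRNA Chchd7 were lower, each with an unadjusted p under 0.05 in limma and none past the adjustment over all genes. These 4 of 28 (14.3%) stand beside 14.7% of all genes at the same p. Pmpcb, Tomm22 and Chchd7 were under 1 CPM in both old HA libraries. They were in the HA table only through the young pools, so their lower direction was tied to its filter. After quantile normalization these 3 no longer had such a p, while Dnm1l did, as did Mfn2, which was not among the 4. In input the log2 differences (old minus young) of Dnm1l, Pmpcb and Tomm22 were 0.19, -0.32 and 0.18, while Chchd7 was lower in old oocytes there too. By function, 9 of the 12 import mRNAs and 9 of 9 inner membrane, cristae and other CHCH mRNAs were lower in old HA libraries, and 5 of the 7 fusion and fission mRNAs were higher. Of all genes in the HA table, 54.1% were lower in old libraries, and of those with a mean HA level under 10 CPM, where most of the import mRNAs lie, 72.9% were. The median log2 differences in HA (old minus young) were -1.32, -0.94 and 0.93, beside -0.14 over all genes. Without old pool 2 they were -0.26, -1.08 and 0.24, and after quantile normalization -0.32, -0.65 and 0.38. The fusion and fission median was 0.34 when each library was set to 1 sum and 0.096 with a pseudocount of 0.1 CPM. In input the same medians were -0.08, -0.10 and -0.11.

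Values are CPM, reads on a gene scaled by the authors to the size of its library, in which 1 read was worth 0.0129 to 0.0370 CPM in HA and 0.0145 to 0.0263 CPM in input. A library held 37817382 to 60052814 reads on genes. The 28 mRNAs together took 0.134% to 0.166% of these reads, with summed levels of 1608 and 2096 CPM in old HA, 1269 and 1275 CPM in young HA and 1402 to 1538 CPM in input. The summed levels of 9 oocyte markers were 8562 to 17560 CPM in each library. Of 12 cumulus and granulosa markers, 4 were in the HA table, summing to 144 and 88.8 CPM in old and 199 and 207 CPM in young oocytes. Both old HA pools were thus below both young ones, as they were for 10 of the 28 members. The part of these markers in the members' difference was not tested. In input 8 of the 12 markers were present (157 to 305 CPM). None of 7 blood markers was in either table, and of 5 oviduct markers Epcam alone was in input, at 57.6 CPM in old pool 1 and 0.0581 to 3.29 CPM in the other pools. The authors call the 2 pools of an age biologically independent, and with 2 against 2 the smallest two-sided p of an exact permutation test of 1 gene is 0.333. These are bulk libraries, so fewer oocytes holding an mRNA and less of it per oocyte cannot be told apart.

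The pools of 1 age differed most in old HA. The median gap between its 2 libraries was 1.51 on the log2(CPM + 1) scale over the 28 mRNAs and 1.29 over all genes of the table, against 0.72 and 0.77 in young HA. In old HA 11 of the 28 mRNAs differed by more than 2 log2 units between pools, against 4 in young HA, 4 in old input and 2 in young input. Of all genes, 34.8%, 12.8%, 17.5% and 7.6% did so in these 4 groups. Of the 28 mRNAs, 12 reached 1 CPM in both old HA libraries and 25 in both young ones, and Chchd7 alone was at 3 reads or fewer in both old HA libraries.

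**Figure D1:**
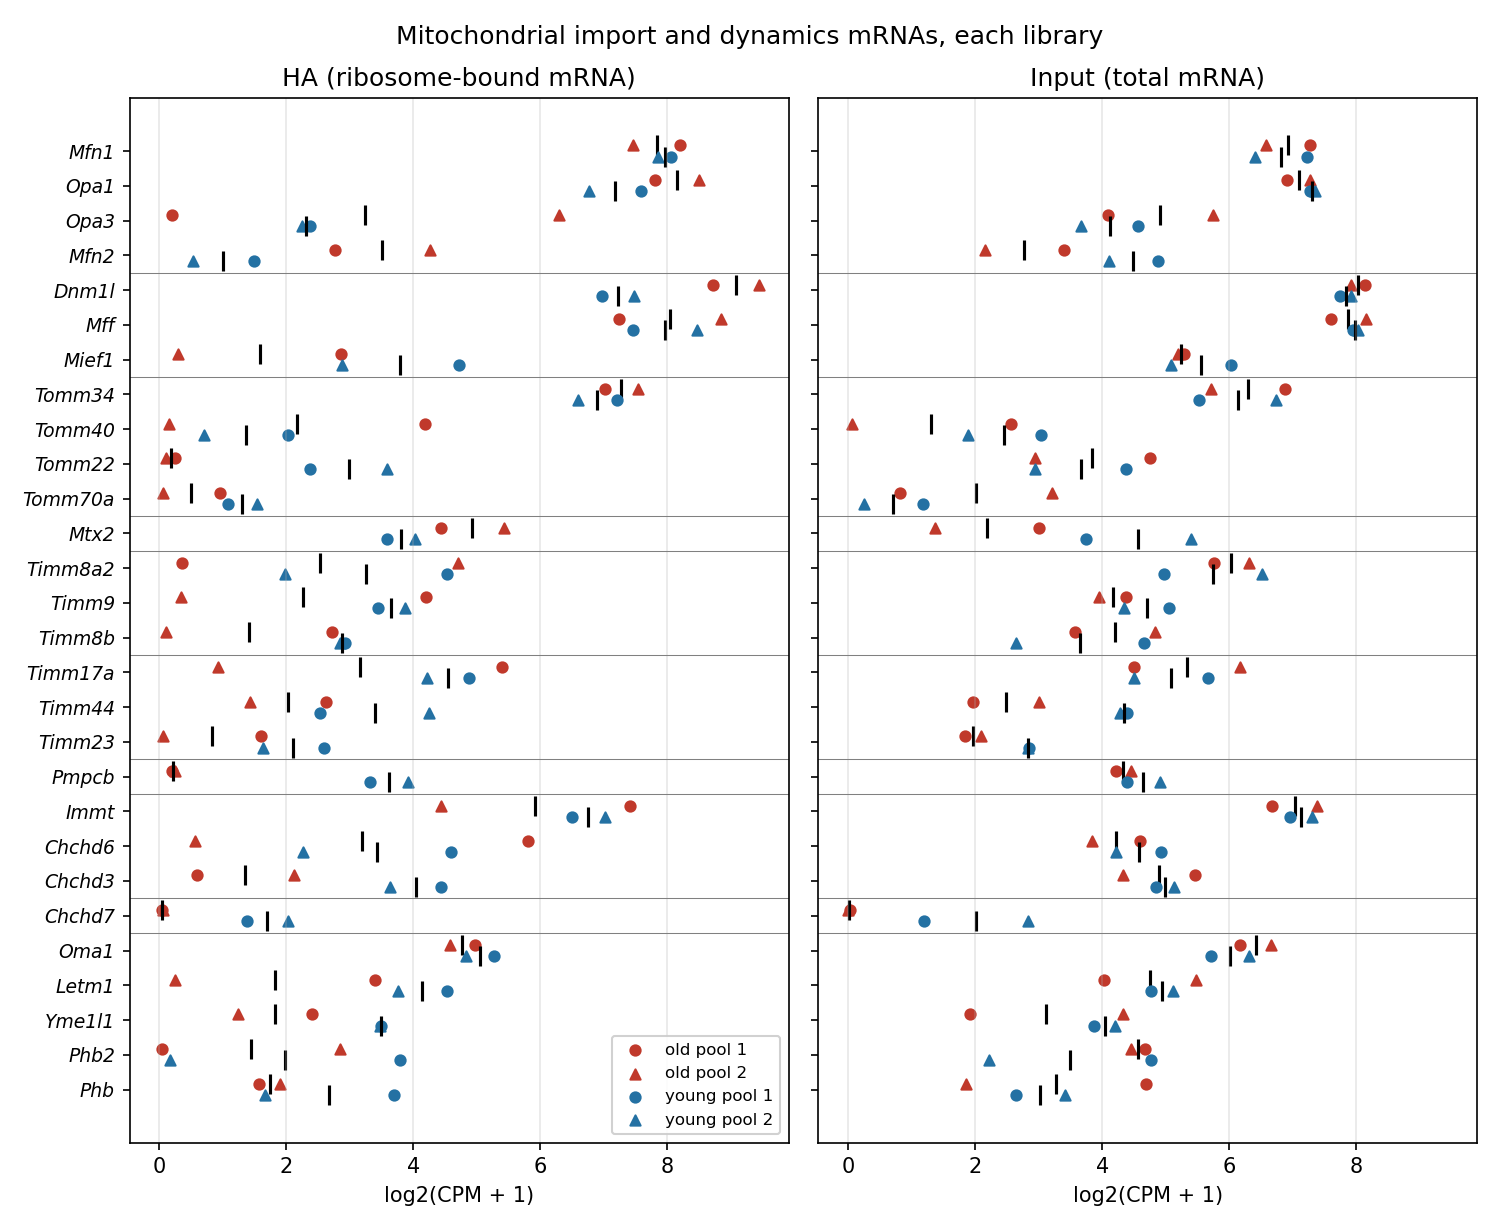
Levels of the 28 mRNAs in the 4 HA libraries (left) and 4 input libraries (right). The x axis is log2(CPM + 1), rows are mRNAs grouped by role (fusion, fission, TOM, SAM, small TIM, TIM23, processing peptidase, MICOS, other CHCH proteins, inner membrane proteases and scaffolds), circles and triangles are the 2 pools, red is old, blue is young and black ticks are the mean of an age. Dnm1l, Mff, Mfn1 and Opa1 lie at the right in every library, and in HA the old values of Pmpcb, Tomm22 and Chchd7 lie near 0.

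The CPE, written TTTTAT or TTTTAAT, was searched on the transcript strand of the longest annotated coding-transcript 3′-UTR of each gene (GENCODE M21, build GRCm38). It was present in 17 of the 28 members (60.7%) and in 70.7% of the 7930 genes with such a UTR. Within the last 100 bases it was present in 6 members (21.4%) and in 22.3% of those genes. The members' 3′-UTR had a median length of 892.5 bases, against 1332 bases for all these genes. The shares were not adjusted for this length. The last CPE of 5 members is shown, 4 with a mean HA level over 100 CPM and Tomm22, which was low in old HA, a choice made after the values were seen. Capitals mark the motif, and the surrounding bases are in lower case, 5′ to 3′ along the mRNA.
Dnm1l: atgatacattcgTTTTATaaatactaaa
Opa1: acattttatttgTTTTAATgagggagaaa
Mfn1: tttacaaaacatTTTTATaagtatgcaa
Tomm34: taattgaactgaTTTTATtgaagtgtgt
Tomm22: gttttttgtttgTTTTATtttttttttt
The Dnm1l site is at chr16:16312726-16312753 on the minus strand, 506 bases from the transcript's end, and that of Opa1 is at chr16:29654620-29654648 on the plus strand, 246 bases from it. The Mfn1 site (chr3:32579164-32579191, plus strand) and the Tomm34 site (chr2:164053572-164053599, minus strand) are the closest of these to the end, at 58 and 42 bases. For Tomm22 it is at chr15:79673037-79673064 on the plus strand, 346 bases from the end. Pmpcb, with a 3′-UTR of 108 bases, and Mff, Mfn2, Opa3, Immt and Chchd7 held neither motif in this window. Members higher in old than in young HA were thus found both with the motif (Dnm1l, Opa1) and without it (Mfn2), and so were members lower there (Tomm22 with it and Pmpcb without).

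In the TOM complex, Tomm22 encodes the central receptor that docks precursors at the pore. It was at 0.190 and 0.0739 CPM in the 2 old HA libraries (8 and 2 reads) and at 4.20 and 10.96 CPM in the 2 young ones (325 and 622 reads). In input it was at 25.9 and 6.66 CPM in old and 19.8 and 6.70 CPM in young oocytes. Both old pools were thus below both young pools in HA, while in input the ages overlapped. The HA log2 difference was -2.80 (standard error, SE, 0.895, limma adjusted p = 0.297 with Benjamini-Hochberg adjustment over 8898 genes). The gene (ENSMUSG00000022427.3) lies on chromosome 15 of GRCm38, 79670861 to 79673400, plus strand, where no other annotated gene overlaps it.

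Tomm40 encodes the pore itself. In HA it was at 17.2 and 0.111 CPM in old and 3.09 and 0.635 CPM in young oocytes, and in input at 4.91 and 0.0401 CPM in old and 7.16 and 2.68 CPM in young. Old pool 2 was near 0 in both fractions (3 reads in HA, 2 in input) while old pool 1 was the highest in HA, so that in HA the old pools lay on both sides of the young ones. Tomm70a, a receptor for carrier precursors, was at 0.927 and 0.0370 CPM in old HA and 1.11 and 1.89 CPM in young HA. Its input values were 0.753 and 8.21 CPM in old and 1.25 and 0.184 CPM in young oocytes, the smallest p among members higher in old input (log2 difference 1.30, SE 1.01, limma adjusted p = 0.888). It rested on old pool 2, since old pool 1 lay between the young pools.

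Tomm34 encodes a cytosolic co-chaperone of precursors and was the only TOM-named member with a mean HA level over 100 CPM. It was at 128 and 185 CPM in old HA and 147 and 95.1 CPM in young HA, and at 117 and 51.3 CPM in old input and 44.8 and 106 CPM in young input. The ages overlapped in both fractions. Of its exon bases, 23.1% also lie under Stk4, so reads there could not be given to either gene.

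Mtx2, metaxin 2, is an outer membrane partner of the SAM complex. It was at 20.6 and 41.8 CPM in old HA against 11.01 and 15.2 CPM in young HA, and in input at 7.00 and 1.58 CPM in old against 12.3 and 41.2 CPM in young oocytes. Old pools were therefore above young pools in HA and below them in input. The input log2 difference was -2.38 (SE 1.08, limma adjusted p = 0.778).

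The 3 small TIM mRNAs encode chaperones that carry hydrophobic precursors across the intermembrane space. In HA, Timm9 was at 17.3 and 0.259 CPM in old and 9.82 and 13.6 CPM in young oocytes, and in input at 19.8 and 14.4 CPM in old and 32.1 and 19.4 CPM in young. Timm8b was at 5.58 and 0.0739 CPM in old HA and 6.58 and 6.17 CPM in young HA. Timm8a2, a close paralog of Timm8a1 with which it may share reads, was at 0.285 and 24.9 CPM in old HA, at 22.1 and 2.93 CPM in young HA, and at 30.5 to 90.8 CPM in input. Old HA pool 2 was the low one for Timm9 and Timm8b, and old HA pool 1 for Timm8a2. The old mean was lower on the log2(CPM + 1) scale for all 3, with old pools below young pools for Timm8b alone.

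TIM23 is the inner membrane channel for matrix proteins. Timm23, its core subunit, was at 2.02 and 0.0370 CPM in old HA and 5.00 and 2.08 CPM in young HA, and at 2.57 and 3.27 CPM in old input and 6.15 and 6.07 CPM in young input. The old pools were below the young pools in both fractions, with old pool 1 and young pool 2 nearly level in HA. Timm44, which tethers the import motor to the channel, was at 5.16 and 1.70 CPM in old HA and 4.79 and 17.9 CPM in young HA. In input it was at 2.88 and 7.06 CPM in old against 20.0 and 18.4 CPM in young oocytes, without overlap (log2 difference -1.85, SE 0.952, limma adjusted p = 0.782). Timm17a, the channel's other membrane subunit, was at 41.1 and 0.887 CPM in old HA and 28.2 and 17.6 CPM in young HA. In input it was at 21.7 and 70.8 CPM in old and 49.8 and 21.7 CPM in young oocytes, and its ages overlapped in both fractions.

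Pmpcb encodes the catalytic subunit of the processing peptidase, which cleaves presequences in the matrix. It was at 0.143 and 0.185 CPM in old HA (6 and 5 reads) and at 9.01 and 14.2 CPM in young HA (697 and 803 reads). In input it was at 17.5 and 20.8 CPM in old and 19.9 and 29.1 CPM in young oocytes. The young HA mean was 70.8 times the old HA mean, whereas in input it was 1.28 times. On the log2 scale the HA difference was -3.40 (SE 1.03, limma adjusted p = 0.297). In DESeq2 on the recovered reads it was the 1 member with an adjusted p under 0.05 (0.0124), where 5.71% of all genes passed, and in edgeR's likelihood ratio test its adjusted p was 0.0604. The gene (ENSMUSG00000029017.13) is on chromosome 5 of GRCm38, 21737141 to 21757152, plus strand, and its exons share no base with another gene.

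MICOS holds the junctions of the cristae. Immt, its core scaffold, was at 169 and 20.6 CPM in old HA and 89.4 and 128 CPM in young HA, and at 102 and 166 CPM in old input and 124 and 157 CPM in young input. The old HA pools lay on both sides of the young ones. Chchd3 was at 0.499 and 3.33 CPM in old HA against 20.7 and 11.4 CPM in young HA, and at 43.1 and 19.1 CPM in old input against 27.9 and 34.1 CPM in young input. Old pools were below young pools in HA and around them in input. Chchd6 was at 55.2 and 0.480 CPM in old HA and 23.0 and 3.79 CPM in young HA, and at 13.3 to 29.4 CPM in input, with overlap throughout.

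Chchd7, a small intermembrane space protein with a CHCH domain, had the fewest reads of any member in old oocytes. It had 1 and 1 reads in old HA (0.0238 and 0.0370 CPM) and 124 and 173 reads in young HA (1.60 and 3.05 CPM). In input it had 1 and 0 reads in old (0.0184 and 0 CPM) and 88 and 233 reads in young oocytes (1.28 and 6.12 CPM). Summed over the pools, the young to old ratio in HA was 76.6 (95% exact interval 21.0 to 635) and in input 313 (55.8 to 12399), intervals that cover counting error only. Old pools were below young pools in both fractions, at levels where 3 reads were worth 0.0713 and 0.111 CPM in old HA and 0.0551 and 0.0602 CPM in old input. The log2 difference was -1.66 in HA (SE 0.53, adjusted p = 0.297) and -1.997 in input (SE 0.828, adjusted p = 0.778), both from limma. The gene (ENSMUSG00000042198.12) is on chromosome 4 of GRCm38, 3938888 to 3951046, plus strand.

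Among the inner membrane proteases and scaffolds, Oma1, the stress-activated protease that cleaves OPA1, had the smallest gaps between pools of an age, at most 1.52-fold. It was at 30.5 and 22.7 CPM in old HA and 37.4 and 27.5 CPM in young HA, and at 71.4 and 100.3 CPM in old input and 51.6 and 78.2 CPM in young input. Its HA level was below its input level in every pool. Yme1l1, the i-AAA protease that also processes OPA1, was at 4.30 and 1.37 CPM in old HA and 10.3 and 10.1 CPM in young HA, and at 2.76 and 19.1 CPM in old input and 13.6 and 17.5 CPM in young input. In HA its old pools were below its young pools.

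Phb and Phb2 encode the prohibitins, which form a ring scaffold in the inner membrane. Phb was at 1.97 and 2.73 CPM in old HA and 11.9 and 2.17 CPM in young HA, and at 24.8 and 2.61 CPM in old input and 5.25 and 9.59 CPM in young input. Phb2 was at 0.0238 and 6.21 CPM in old HA and 12.9 and 0.123 CPM in young HA. In both ages 1 HA pool held almost no Phb2 reads (1 read in old pool 1 and 7 reads in young pool 2). In input Phb2 was at 24.6 and 21.0 CPM in old and 26.2 and 3.65 CPM in young oocytes (log2 difference 1.08, SE 1.00, limma adjusted p = 0.906), and 31.5% of its exon bases lie under other annotated genes. Letm1, an inner membrane protein of ion exchange, was at 9.55 and 0.185 CPM in old HA against 22.2 and 12.5 CPM in young HA, and at 15.3 and 43.5 CPM in old input against 26.2 and 33.7 CPM in young input. Its old pools were below its young pools in HA and around them in input.

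Among the fission mRNAs, Dnm1l encodes DRP1, the dynamin-related GTPase that constricts mitochondria. It was at 419.8 and 693 CPM in old HA against 124 and 177 CPM in young HA. In input it was at 281 and 239.8 CPM in old and 214 and 241 CPM in young oocytes. Both old HA pools were above both young HA pools, by a factor of 3.69 between the means, while the input pools overlapped and their means differed by a factor of 1.15. The HA log2 difference was 1.86 (SE 0.49, limma adjusted p = 0.297). It was 1.22 with the libraries rescaled to the same sum and after quantile normalization, and 2.09 with them rescaled to the median log2 ratio. The gene (ENSMUSG00000022789.14) is on chromosome 16 of GRCm38, 16312230 to 16358959, minus strand, and 4.67% of its exon bases are shared with another annotated gene.

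The 2 other fission mRNAs encode receptors that draw DRP1 to the outer membrane. Mff was at 149 and 457 CPM in old HA and 175 and 351 CPM in young HA, and at 193 and 282 CPM in old input and 245 and 260.3 CPM in young input. Its old pools enclosed its young pools in both fractions. Mief1 was at 6.30 and 0.222 CPM in old HA and 25.2 and 6.36 CPM in young HA, and at 38.2 and 35.7 CPM in old input and 63.9 and 32.7 CPM in young input. In HA the old pools were below the young ones, although old pool 1 and young pool 2 were within 0.1 CPM of each other.

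On the fusion side, Opa1, the GTPase of inner membrane fusion, was at 224 and 362 CPM in old HA and 191 and 108 CPM in young HA, without overlap. Its input values were 119 and 154 CPM in old and 153 and 162 CPM in young oocytes, and they overlapped. The HA log2 difference was 0.98 (SE 0.549, limma adjusted p = 0.497), and it was 0.34 with the libraries rescaled to the same sum. Opa1 (ENSMUSG00000038084.16) is on chromosome 16 of GRCm38, 29579334 to 29654884, plus strand, and no other annotated gene overlaps it.

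The mitofusins are the GTPases of outer membrane fusion, and their mRNAs were at unlike levels. Mfn1 was at 294 and 175 CPM in old HA and 266 and 231 CPM in young HA, and at 154 and 95.1 CPM in old input and 148 and 84.1 CPM in young input. The ages overlapped in both fractions, and HA was above input in all 4 pools. Mfn2 was at 5.77 and 18.1 CPM in old HA against 1.81 and 0.441 CPM in young HA. In input the order was the opposite, with 9.50 and 3.43 CPM in old against 28.3 and 16.1 CPM in young oocytes. Neither fraction overlapped between ages, and the HA log2 difference of Mfn2 was 2.50 (SE 1.29, limma adjusted p = 0.451). Mfn2 (ENSMUSG00000029020.13) is on chromosome 4 of GRCm38, 147873599 to 147904704, minus strand.

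Opa3, a mitochondrial membrane protein mutated in optic atrophy, was at 0.143 and 77.4 CPM in old HA and 4.19 and 3.74 CPM in young HA. Its old HA mean of 38.8 ± 54.6 CPM (SD, n = 2 pools) rested on old pool 2 alone. In input Opa3 was at 15.9 and 52.6 CPM in old and 22.7 and 11.7 CPM in young oocytes (log2 difference 0.80, SE 0.815, limma adjusted p = 0.92). Summed over the 7 fusion and fission mRNAs, HA was at 1099 and 1783 CPM in old and 788 and 877 CPM in young oocytes, and input at 811 and 863 CPM in old and 876 and 808 CPM in young.

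**Figure D2:**
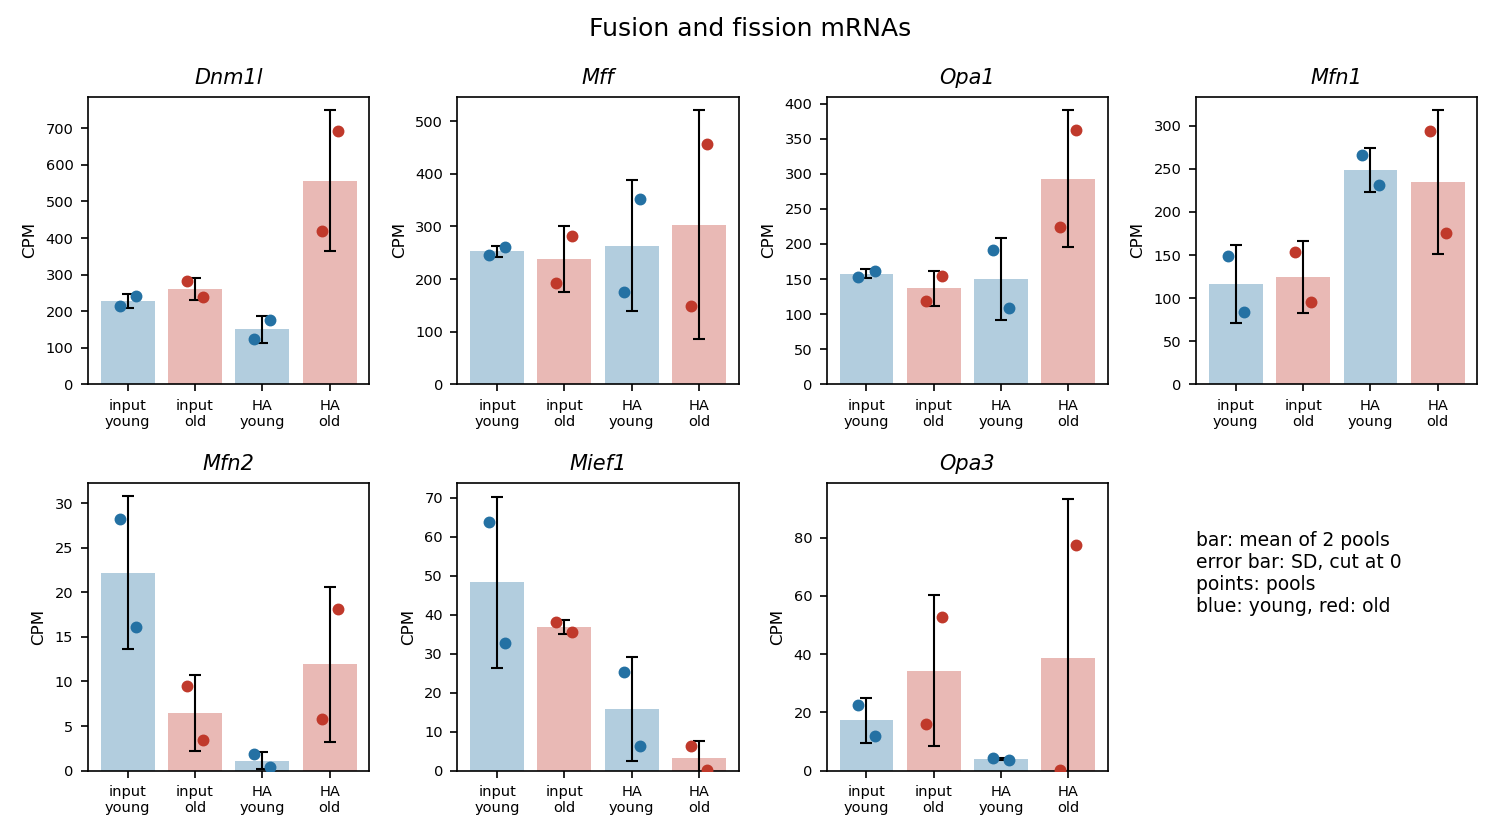
Levels of the 7 fusion and fission mRNAs in CPM (y axis, from 0, scaled for each mRNA) in young input, old input, young HA and old HA. Bars are means of 2 pools, error bars are SD (n = 2, drawn down to 0 at the lowest) and points are pools, with young in blue and old in red. Dnm1l and Opa1 are highest in old HA, Mfn2 is highest in young input and Mfn1 is higher in HA than in input at both ages.

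Counted over all members, none of 28 had an adjusted p under 0.05 in HA in limma, as was so for all 8898 genes (0.0%). At an unadjusted p under 0.05, 1 member was higher in old HA (Dnm1l) where 4.28% of all genes were, and 3 were lower where 10.5% were. These 3 were in the HA table only through the young pools. Both directions together made 4 of 28, or 14.3%, beside a background of 14.7%. In edgeR's quasi-likelihood test on the recovered reads no member passed at 0.05 or 0.1, and in its likelihood ratio test none passed at 0.05 (background 3.32%) and 4 passed at 0.1 (8.18%), namely Dnm1l, Pmpcb, Tomm22 and Chchd7. DESeq2 called 1 member at 0.05 and 2 at 0.1 (8.04%), Pmpcb and Tomm22.

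By pool order, both old HA pools were above both young HA pools for 4 members (Dnm1l, Opa1, Mfn2 and Mtx2), beside 17.2% of all genes. They were below both young pools for 10 members, 35.7%, beside 24.7% of all genes. Of the 28 members, 20 had a log2 difference below 0, where 54.1% of all genes did, and 8 had one above 0 (45.9%). The members' median HA difference was -0.82, beside -0.14 over all genes.

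The direction in HA varied with the level of the mRNA, for members as for all genes. Of the 14 members with a mean HA level under 10 CPM, 12 were lower in old oocytes (median log2 difference -1.42), and over all 3207 genes of that range 72.9% were lower (median -0.98). Between 10 and 100 CPM, 6 of 8 members were lower (median -0.50), beside 54.4% of all genes (median -0.14). At 100 CPM or more, 4 of 6 members were higher (median 0.23), and 21.8% of all genes of that range were lower (median 0.53). The import and inner membrane members were mostly of low level, and the part of the level in their HA difference was not tested. Leaving out old pool 2, 7 of 12 import members and 7 of 9 inner membrane, cristae and other CHCH members were lower, and 4 of 7 fusion and fission members were higher. After quantile normalization these counts were 9 of 12 and 6 of 9, and 4 of 7 fusion and fission members were higher.

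**Figure D3:**
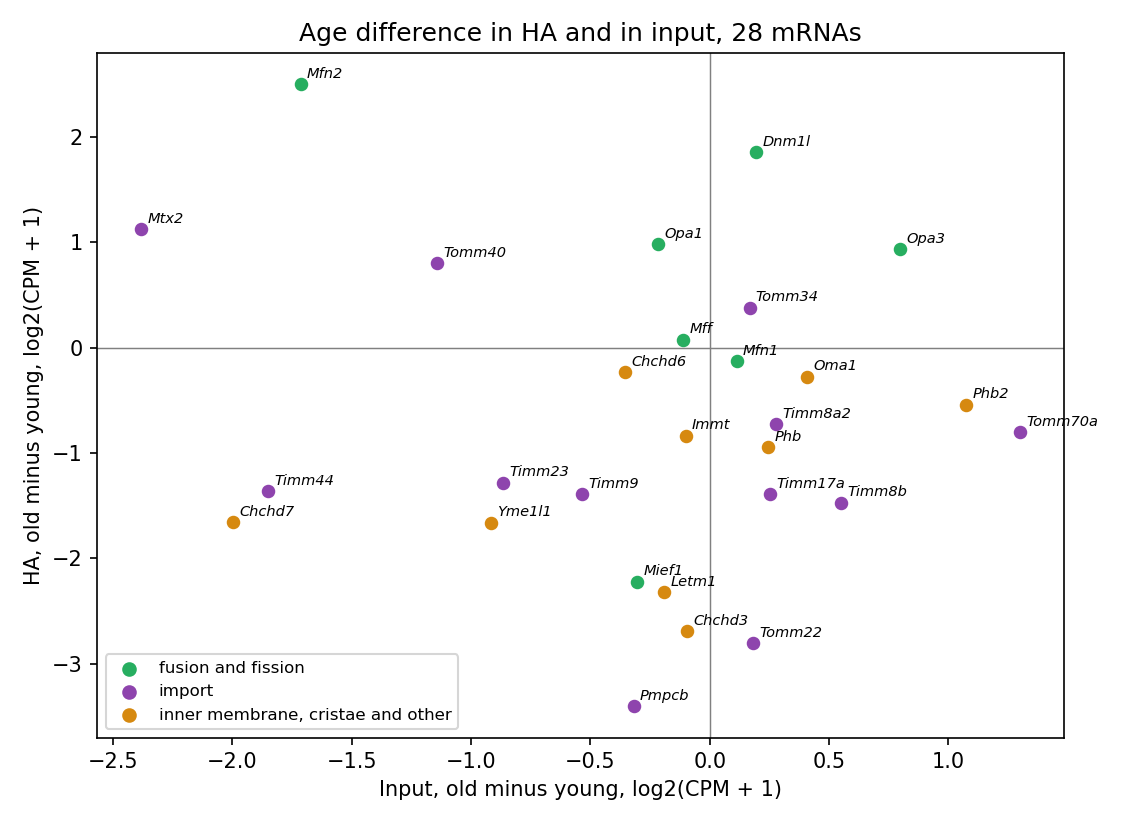
Age difference of each of the 28 mRNAs in input (x axis) and in HA (y axis), both as old minus young on the log2(CPM + 1) scale, with fusion and fission in green, import in purple and inner membrane, cristae and other CHCH proteins in orange. The spread is wider in HA, from -3.40 (Pmpcb) to 2.50 (Mfn2), than in input, from -2.38 (Mtx2) to 1.30 (Tomm70a).

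In input, no member had an adjusted p under 0.05 in limma (background 0.0095%), edgeR's quasi-likelihood test (0.0%), its likelihood ratio test (0.475%) or DESeq2 (1.08%). At an unadjusted p under 0.05 in limma, no member was higher (2.71% of all genes) and Chchd7 was lower (3.48%), 1 of 28 in either direction beside 6.18%. At an adjusted p under 0.1, Chchd7 passed in the likelihood ratio test (1.34%) and no member in DESeq2 (1.91%). Old pools were above young pools for no member (16.4%) and below them for 5 members (18.9%), namely Chchd7, Mfn2, Mtx2, Timm23 and Timm44. The log2 difference was above 0 for 12 members (48.6% of all genes) and below 0 for 16 (51.4%), with a median of -0.11 beside -0.03 for all genes.

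Translation efficiency (TE) was the HA level divided by the input level of the same pool. The fractions were scaled separately, so a TE of 1 has no fixed meaning and only its difference between ages was tested. HA was above input in both old pools for 7 members (19.8% of all genes) and in both young pools for 1 member, Mfn1 (17.5%). The 7 include Chchd7, with 1 and 1 HA reads against 1 and 0 input reads in old pools. They also include Tomm40, with 3 HA reads and 2 input reads in old pool 2. HA was below input in both old pools for 11 members (40.8%) and in both young pools for 19 members (47.7%).

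TE was higher in old than in young oocytes for Dnm1l, at 1.49 and 2.89 in the old pools and 0.581 and 0.735 in the young ones. The log2 TE difference of Dnm1l was 1.66 (SE 0.592, limma adjusted p = 0.739). For Mfn2 the TE was 0.608 and 5.28 in old against 0.0640 and 0.0273 in young oocytes, and its log2 TE difference was 4.21 (SE 1.67, limma adjusted p = 0.739). Dnm1l had a higher HA level in old oocytes, and Mfn2 both a higher HA level and a lower input level. The more abundant mitofusin Mfn1 had a log2 TE difference of -0.24, with overlapping pools. For Mtx2 the TE was 2.94 and 26.4 in old against 0.893 and 0.370 in young oocytes (log2 TE difference 3.50, SE 1.62, limma adjusted p = 0.739). In its old pool 2 the input count was 79 reads.

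On the lower side, the TE of Pmpcb was 0.00813 and 0.00887 in old against 0.453 and 0.487 in young oocytes. This was a close match within each age, and the log2 TE difference was -3.09 (SE 1.55, limma adjusted p = 0.739). For Tomm22 the TE was 0.00733 and 0.0111 in old against 0.212 and 1.64 in young oocytes (log2 TE difference -2.99, SE 1.67, limma adjusted p = 0.739). For the MICOS subunit Chchd3 it was 0.0116 and 0.174 in old against 0.741 and 0.334 in young oocytes (log2 TE difference -2.59, SE 1.63, limma adjusted p = 0.753). In each of these 3 the old pools were below the young pools. Chchd7 had no usable TE in old oocytes, with 1 and 0 input reads.

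Over all members, none passed an adjusted p of 0.05 for TE in limma (0.0% of all genes). At an unadjusted p under 0.05, 2 members were higher in old oocytes (2.98% of 8537 genes) and none was lower (3.51%), 2 of 28 in either direction beside 6.49%. In edgeR's quasi-likelihood test of the interaction on the recovered reads none passed the adjustment and 4 had an unadjusted p under 0.05, beside 10.9% of all genes. Old pools were above young pools for 5 members (Dnm1l, Mfn2, Mtx2, Opa1 and Tomm40), beside 17.2% of all genes, and below them for 4 members (Pmpcb, Tomm22, Chchd3 and Mief1), beside 20.4%. The log2 TE difference was above 0 for 11 members (47.1%) and below 0 for 17 (52.9%). Leaving aside Chchd7, whose TE rests on the pseudocount, 10 were above 0 and 17 below, with a median of -0.73. The median of all 28 was -0.71, beside -0.10 for all genes, and it was 0.045 without old pool 2. By function, the median was -0.93 for import, 0.19 for fusion and fission, and -0.74 for the other members. Without old pool 2 these were 0.20, -0.21 and 0.17.

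**Figure D4:**
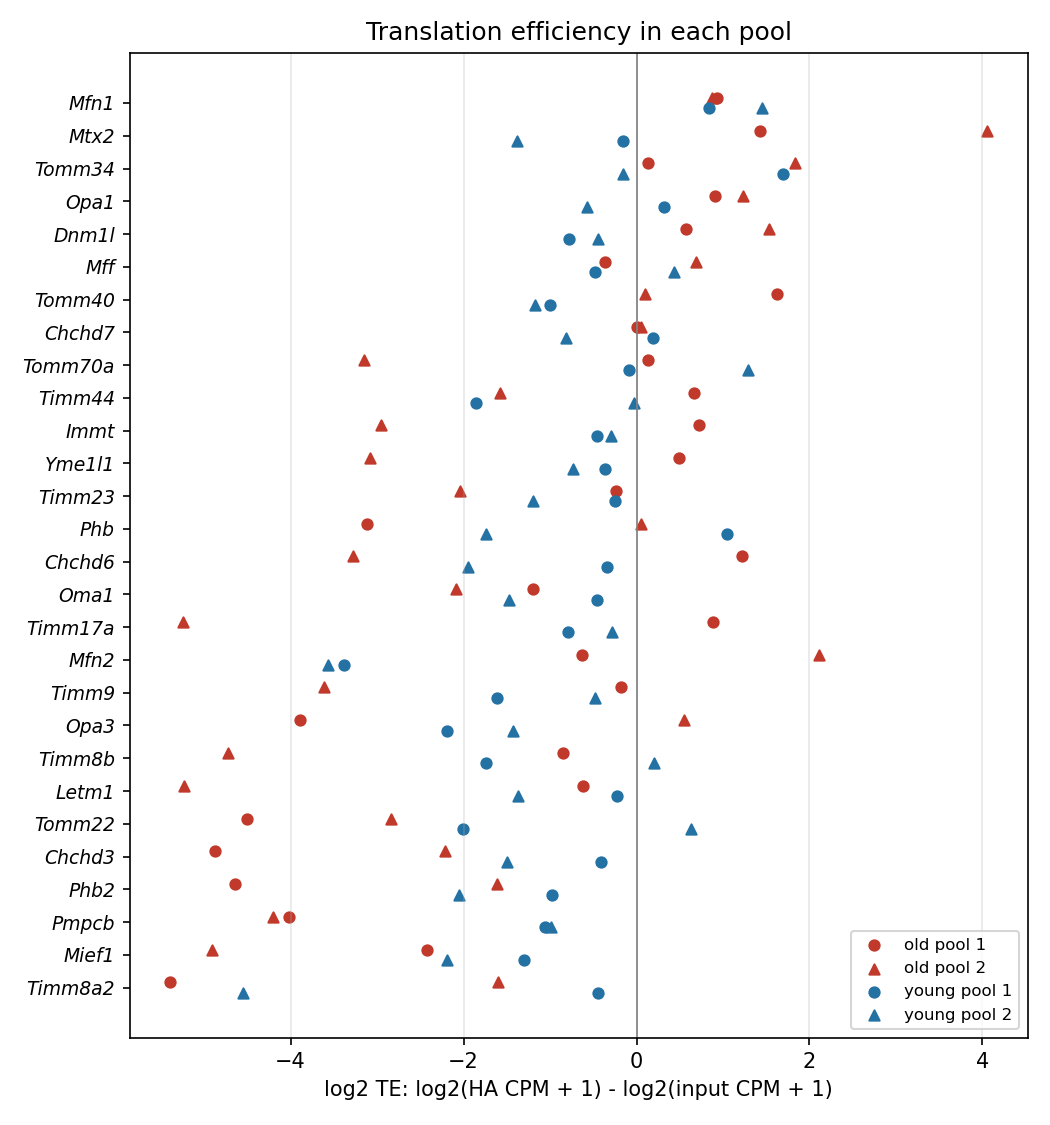
TE of each of the 28 mRNAs in the 4 pools. The x axis is log2 TE, the HA minus the input level on the log2(CPM + 1) scale, rows are ordered by the mean over pools, circles and triangles are the 2 pools, red is old and blue is young. Mfn1 lies above 0 in each pool, Dnm1l and Opa1 have old pools above young ones, and Pmpcb has old pools near -4 and young pools near -1.

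Per kilobase of exon, the highest mean HA levels over the 4 libraries of both ages were those of Dnm1l (67.9 CPM per kb), Tomm34 (45.7), Mfn1 (39.5), Mff (29.0) and Opa1 (28.1). Dnm1l led through the old HA libraries (80.7 and 133 CPM per kb). In young HA (23.9 and 34.0) it was below Mfn1 (43.6 and 37.7). The highest mean input levels per kilobase of exon were those of Timm8a2 (69.1 CPM per kb), Dnm1l (46.9), Oma1 (35.1), Timm8b (32.7) and Tomm34 (26.3). Timm8b was at 10.9 and 27.4 CPM in old input and 24.3 and 5.23 CPM in young input, and Timm8a2 at 52.9 and 78.0 CPM in old input and 30.5 and 90.8 CPM in young input. By the mean over both ages, these small TIM mRNAs were thus among the highest in total mRNA per length and not among the 5 highest on ribosomes. In young HA pool 1, however, Timm8a2 (24.2 CPM per kb) was above Dnm1l (23.9). Pools overlapped between ages in input for each mRNA of this list.

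Of 56 other genes of mitochondrial import, quality control, cristae, transport and dynamics, 40 were in the HA table and 45 in the input table. In HA none of the 40 was higher and 6 were lower in old oocytes at an unadjusted p under 0.05 in limma, and none passed the adjustment. These 6 (15.0%) stand beside 10.5% of all genes lower and 4.28% higher. All 6 were under 1 CPM in both old HA libraries and were in the HA table only through the young pools. Their lower direction was thus tied to its filter. The 6 were Hspe1, the matrix co-chaperonin, Fundc1 and Park2 of mitophagy, Fkbp8, an outer membrane anchor, Dnajc15, a co-chaperone of the import motor, and Mtfr1l. Hspe1 was at 0.0475 and 0 CPM in old HA and 6.02 and 4.09 CPM in young HA, and Park2 at 0.594 and 0.887 CPM in old HA and 15.2 and 17.3 CPM in young HA. Old pools were below young pools for both. In input and in TE none of the 45 and 40 genes had an unadjusted p under 0.05 in either direction in limma. Their median log2 differences were -0.42 in HA, -0.20 in input and -0.29 in TE, beside -0.14, -0.03 and -0.10 over all genes.

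Reads were counted over whole gene spans without strand. The spans of 20 members overlapped another annotated gene, and 3 (Phb2, Tomm34 and Timm8b) shared more than 10% of their exon bases. In the HA table alone, Timm8a1 was at 0.0713 and 0.0370 CPM in old (3 and 1 reads) and 1.74 and 3.75 CPM in young oocytes (135 and 213 reads), with old pools below young pools. In the input table alone, Pmpca, the partner subunit of Pmpcb, was at 2.50 and 0 CPM in old and 0.508 and 2.16 CPM in young oocytes, with overlap. The rule also takes 21 annotated genes in neither table, among them Tomm20, Timm50, Timm10 and Fis1, which were not analysed here.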

How the data were processed

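RNA-Seq of 8 libraries (HA and input of 4 oocyte pools) was analysed. The authors trimmed the single-end reads with Trimmomatic 0.36, aligned them with HISAT2 to mm10 (GRCm38), counted reads per gene span with HTSeq, and deposited signal values, namely CPM after edgeR's TMM normalization, set separately for HA and input. By the Methods, genes had to reach 10 CPM in 2 or more libraries, a limit that 15 members in HA and 23 in input meet, although the tables also hold genes under it. Every gene of a table reached 1 CPM before TMM in 2 or more libraries. In HA, Chchd7, Pmpcb, Tomm22 and Tomm70a did so through the young pools alone. The deposited values were whole multiples of what 1 read is worth (100% within a tolerance of 0.01), which gave back the reads.

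Old and young were compared with limma (lmFit, then eBayes with a variance trend) applied to log2(CPM + 1), two-sided, and p-values were adjusted by Benjamini-Hochberg over the whole table. On this scale, differences of low genes are understated. TE per pool was log2(HA CPM + 1) minus log2(input CPM + 1), with the variance trend on mean expression. The members, roles and other gene lists were chosen with earlier results of these data known. Named genes were, in each of HA, input and TE, the 3 members with the smallest p in each direction. Levels are also given for defining members, members at 3 reads or fewer in both libraries of an age, and the 5 highest per exon length. The remaining members were added after their values were seen. Gene identifiers matched GENCODE M21 for 99.7% of the HA and 99.8% of the input table. Same-numbered old and young pools share only a number and were not paired. As alternatives, pseudocounts of 0.1 and 5 CPM, a low-value filter, 3 scalings, other eBayes settings and count tests on the reads were run, as were fits without 1 pool. Tests were checked on simulated data. Tools were limma 3.58.1, DESeq2 1.42.0 and edgeR 4.0.16 in R 4.3.3, and matplotlib 3.10.9, scipy 1.17.1, pandas 2.3.3 and numpy 2.4.6 in Python 3.11.15.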

Additional observations from a re-analysis of the deposited data

Results flagged for a closer look

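For 3 mRNAs the HA level was above the input level in both old pools and below it in both young pools, so that the 2 ages lay on opposite sides, as they did for 4.98% of all 8537 genes. For Dnm1l the old mean TE was 3.33 times the young mean. Its TE was 1.49 and 2.89 in old and 0.581 and 0.735 in young pools, with 9156 reads or more behind each level. For Mtx2 it was 23.2 times, with 2.94 and 26.4 in old and 0.893 and 0.370 in young pools. The second old value had 79 input reads behind it. For Tomm40 it was 9.38 times, with 3.51 and 2.76 in old and 0.432 and 0.237 in young pools, and the second old value had 3 HA reads and 2 input reads behind it. The difference in log2 TE between ages was tested in limma, where Dnm1l and Mtx2 each had an adjusted p of 0.739 and Tomm40 one of 0.77, and the opposite sides as such were not tested. As HA and input were scaled separately, the side on which a value falls depends on that scaling.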

How the results depend on the processing

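In HA, the 4 members at an unadjusted p under 0.05 became 1 with a 10 CPM filter (in 2 or more libraries) and 2 after quantile normalization, and were 3 to 12 with 1 pool left out (12 without old pool 1, where 26.1% of all genes had such a p). The 0 members at an adjusted p under 0.05 became 1 in DESeq2 and 0 to 3 with 1 pool left out. Without old pool 1 this was Dnm1l (adjusted p = 0.0328, with 393 genes called in all), and without young pool 2 these were Pmpcb, Tomm22 and Chchd7 (0.0495, 0.0305 and 0.0257, with 634 genes called in all). In such fits the lone pool is assumed to vary like the others. The members' HA median of -0.82 was -0.18 in DESeq2 and -1.45 to -0.43 with 1 pool left out. The 2 members after quantile normalization were Dnm1l and Mfn2, both higher in old HA, and Mfn2 was not among the 4. No member was lower at such a p there. The log2 differences of Pmpcb, Tomm22 and Chchd7 were then -2.15, -1.57 and -0.71.

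In input, the 1 member at an unadjusted p under 0.05 became 0 with a pseudocount of 5 CPM, with the 10 CPM filter and by quantiles, 2 when every library was set to 1 sum, in edgeR's likelihood ratio test and in DESeq2, and 3 without the eBayes trend, with 0 to 3 when 1 pool was left out. With 1 pool left out, Phb2 ranged from -0.20 (without young pool 2) to 2.35 and Opa3 from -0.0335 (without old pool 2) to 1.63, so both turned. For TE, the 2 members at an unadjusted p under 0.05 became 4 with a pseudocount of 0.1 CPM, in the limma interaction over the 8 libraries and in edgeR's quasi-likelihood interaction, 1 with the 10 CPM filter and when every library was set to 1 sum, and 0 to 10 with 1 pool left out (10 without old pool 1, where 25.1% of all genes had such a p). The members' TE median of -0.71 turned to 0.045 without old pool 2, the upper end of a range from -0.88. With the trend on the mean TE, an alternative chosen after seeing the data, the count was 3. Of 261 alternative values of single genes, 259 kept their direction. The other eBayes settings, the replicate block and the limma interaction leave the difference itself unchanged, so they could not turn it. The genes were also chosen by the smallest p in each direction, so this count does not measure robustness.

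Rescaling moved the median HA difference of all genes from -0.14 to -0.68 (same sum), 0.06 (median log2 ratio) and -0.05 (quantile). The members' own medians were below these, at -1.35, -0.67 and -0.36. DESeq2, a count model with its own scaling and no pseudocount of 1 CPM, gave 0.33 for all genes and -0.18 for the members. In edgeR's likelihood ratio test, a count model on the authors' scaling, these medians were 0.12 and -0.35. Same-numbered old and young pools deviated together little (correlation over genes 0.08 in HA and 0.03 in input), and with a replicate block the number of members was 4 in HA, 1 in input and 2 in TE at an unadjusted p under 0.05 and 0 after adjustment, with no call changed. Members at a few reads in some libraries, such as Chchd7 and Tomm40, carry more counting error than those of the fission and fusion group at 100 CPM or more.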
